A study of Mus musculus with 3 samples.

Results

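The genes described here encode the glutathione, thioredoxin and NRF2 antioxidant systems. They are the protein-coding genes of the deposited table whose symbols name glutathione S-transferases, glutathione peroxidases, peroxiredoxins, thioredoxins and their reductases, superoxide dismutases, catalase, haem oxygenases, the enzymes and transporter that supply glutathione, Nqo1, Srxn1, Txnip, Nfe2l2 and Keap1. This gave 56 genes of 21760 in the table, taken by symbol and not by a cut on their values. The group of symbols was chosen with earlier results of these data known. Of the 56 genes, 55 had at least 20 counts in at least 1 library and were measured. The exception was Gstp3, which had 1, 4 and 1 counts in the sham, excision and PNU-282987 libraries.

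RNA of the mouse cornea, the clear window at the front of the eye, was sequenced in 3 libraries, 1 for each group. Sham mice had an incision in the zone of the lacrimal glands that left the glands untouched. Excision mice had the lacrimal gland, which makes tears, removed, a surgical model of dry eye. PNU-282987 mice were given eyedrops 3 times a day with this compound, which activates nicotinic acetylcholine receptors built from the α7 subunit. The labels used here do not say whether the mice given eyedrops had also lost the gland, how many corneas a library held, or the strain, sex and age of the mice. The study concerned the role of that receptor in dry eye disease. The spread between animals could not be measured with 1 library per group, so no p-value is given and each comparison is between 2 libraries. Ratios carry a 95% counting interval, which covers the error of counting alone. Without molecular identifiers the reads need not come from separate molecules, so even that error may be larger than the interval.

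Cells detoxify peroxides and reactive aldehydes with thiols. Glutathione, a small peptide, is used by peroxidases to reduce peroxides and by transferases to tag electrophiles, and the thioredoxin system does parallel work with small proteins and peroxiredoxins. The transcription factor NRF2 induces many of these genes when its partner KEAP1, which otherwise sends it for degradation, is modified by oxidants. The cornea faces light and air directly, and its epithelium holds large amounts of detoxifying enzymes.

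Total counts were 37703843, 37692972 and 39616004 for sham, excision and PNU-282987. Levels are given as CPM, counts scaled to a common library total after TMM scaling, a correction for differences in composition between libraries. The corneal epithelial keratin gene Krt12 stood at 39479, 30579 and 42092 CPM in the 3 libraries in the order sham, excision, PNU-282987, which is used throughout, and the keratocyte gene Kera at 189, 86.7 and 95.7 CPM, so the defining markers of cornea were present in each library. Marker lists of neighbouring tissue differed between libraries. The summed level of 16 lens genes was 629, 22.5 and 567 CPM, that of 11 corneal endothelial genes 1519, 624 and 1266, and that of 14 stromal genes 1870, 1248 and 1233. The conjunctival and goblet cell list, 13 genes, stood at 2294, 3837 and 5870 CPM. Most of that sum was Krt13, at 2022, 3091 and 4619 CPM. Other genes of the list were almost confined to PNU-282987, with Muc5ac at 1, 11 and 2980 counts and Gp2 at 5, 4 and 3801. In PNU-282987 against excision 10 of the 13 genes lay above 0 and 3 below. The lacrimal gland list was likewise almost confined to PNU-282987, at 0.333, 0.162 and 31.8 CPM. In bulk tissue, fewer cells of a type and less RNA per cell cannot be told apart.

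**Figure D1:**
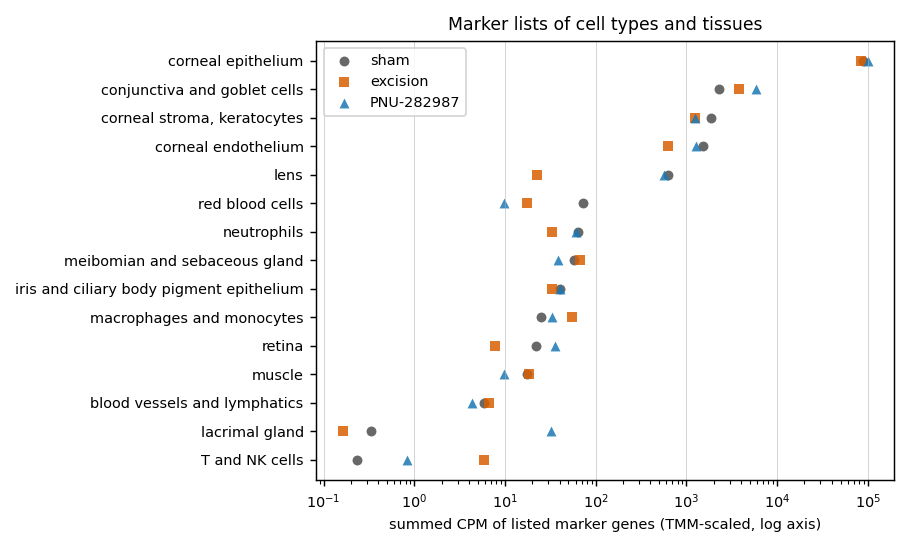
Summed TMM-scaled CPM (log axis) of marker lists for cell types and tissues, 1 point per library: sham (circles), excision (squares) and PNU-282987 (triangles). The lens list lies far lower in excision (22.5 CPM) than in sham (629) and PNU-282987 (567), while the corneal epithelium list is the most abundant in every library.

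The antioxidant genes were abundant. Together they held 4.07% of all counts in sham (95% Wilson interval 4.06 to 4.07), 3.54% in excision (3.53 to 3.54) and 4.50% in PNU-282987 (4.498 to 4.511). A pair of transferase genes, Gsto1 and Gsta4, supplied 85.5%, 83.6% and 87.4% of those counts in sham, excision and PNU-282987. Gsto1 alone was the gene with rank 2 by counts in all 3 libraries. Levels of different genes were compared as CPM per kilobase of exon, with exon lengths from GENCODE M21. On this scale Gsto1 led in sham at 13607, followed by Gsta4 at 4767, Prdx5 at 483, Txn1 at 397 and Gpx1 at 282. The lowest measured gene was Slc7a11, at 0.0405.

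**Figure D2:**
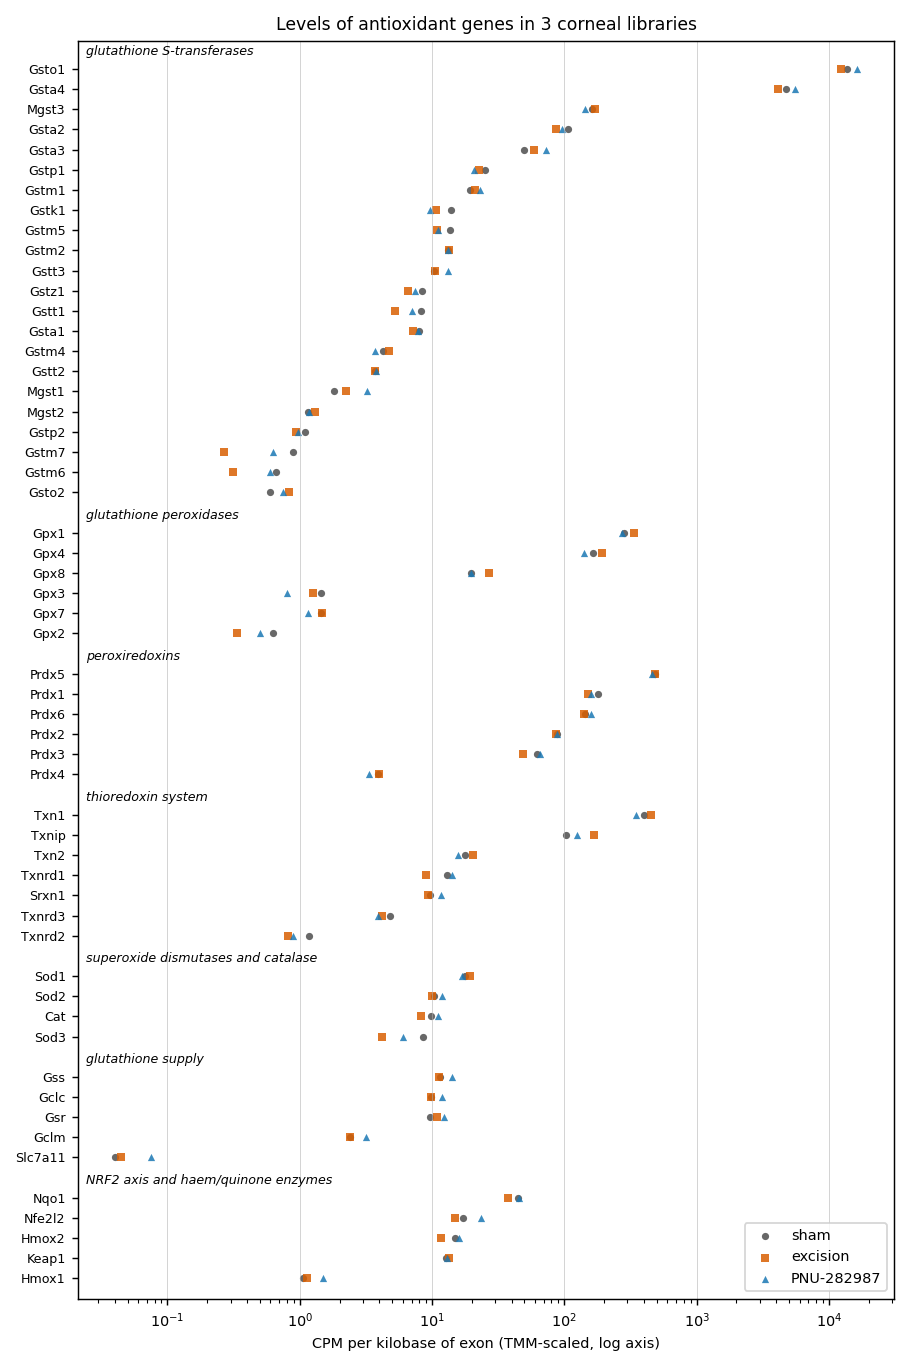
Level of each of the 55 measured antioxidant genes in each library, as TMM-scaled CPM per kilobase of exon on a log axis, grouped by role and ordered by the sham level. Gsto1 and Gsta4 lie far to the right of all others, and for most genes the 3 points lie close together.

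Differences between libraries were mostly small. Genes that differed by at least 2-fold, with a counting interval that excluded equal levels, were called. Set against sham, the excision library had 0 of 55 antioxidant genes called higher by that rule and 3 called lower, namely Gstm6, Gstm7 and Sod3. Over all 14180 measured genes 4.01% were called higher and 5.48% lower in that comparison, so the share of 5.45% lower among the antioxidant genes lay at the background. In PNU-282987 against excision 1 gene, Gstm7, was called higher and 0 lower, against a background of 3.90% and 5.62%. In PNU-282987 against sham no gene was called in either direction, against 2.58% higher and 4.96% lower. The comparisons share libraries, so they are not independent of one another.

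The median log2 ratio of the 55 genes was -0.04 when excision was set against sham. It was 0.13 when PNU-282987 was set against excision, and -0.01 when it was set against sham. Over all measured genes these medians were -0.003, 0.008 and 0.0003. In PNU-282987 against excision 35 of 55 antioxidant genes lay above 0, as did 7199 of 14175 genes with a ratio. The share of genes with a log2 ratio between -0.5 and 0.5 was 85.5%, 83.6% and 87.3% among the antioxidant genes, and 76.0%, 73.0% and 78.8% over all measured genes. Among genes with at least 100 counts in a library the shares were closer, at 89.6% of 48 antioxidant genes in each comparison against 84.3%, 80.96% and 87.2%.

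**Figure D3:**
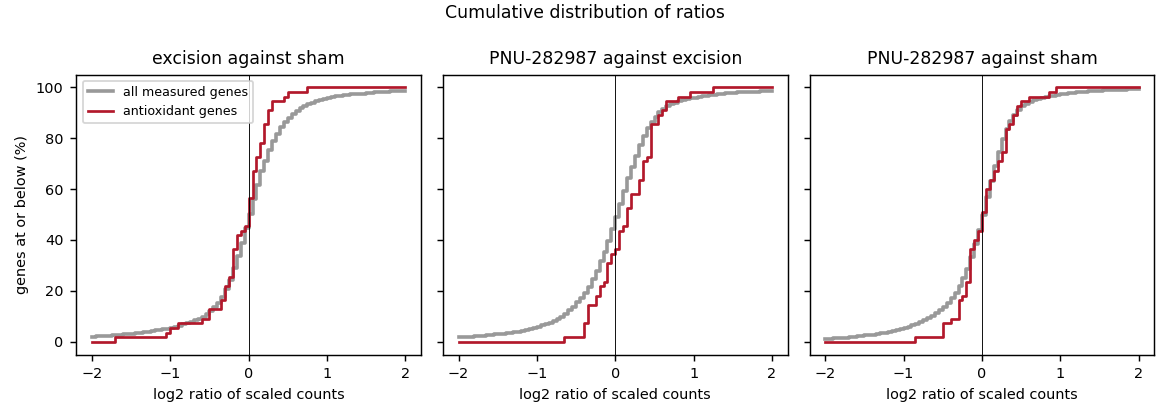
Cumulative share of genes (percent) at or below each log2 ratio, for the 55 measured antioxidant genes and for all measured genes, in each of the 3 comparisons. The antioxidant curve lies to the right of the other around 0 in PNU-282987 against excision (median 0.13 against 0.008), and it reaches neither far tail.

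A second, lower threshold served to choose genes to describe: at least 1.5-fold, an interval excluding equal levels and at least 100 counts in a library, which 48 antioxidant genes had. In excision against sham it took Txnip as higher, where 5.93% of 11431 genes were higher, and Gstt1 and Sod3 as lower, where 5.84% were lower. In PNU-282987 against excision it took Nfe2l2 and Txnrd1 as higher and Gpx3 as lower, against 5.70% and 7.84%. In PNU-282987 against sham it took Mgst1 as higher and Gpx3 as lower, against 3.46% and 6.09%. Each share among the antioxidant genes, from 2.08% to 4.17%, was 1 or 2 genes of 48. These shares lay somewhat below the backgrounds, on too few genes to be read as a difference.

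**Figure D4:**
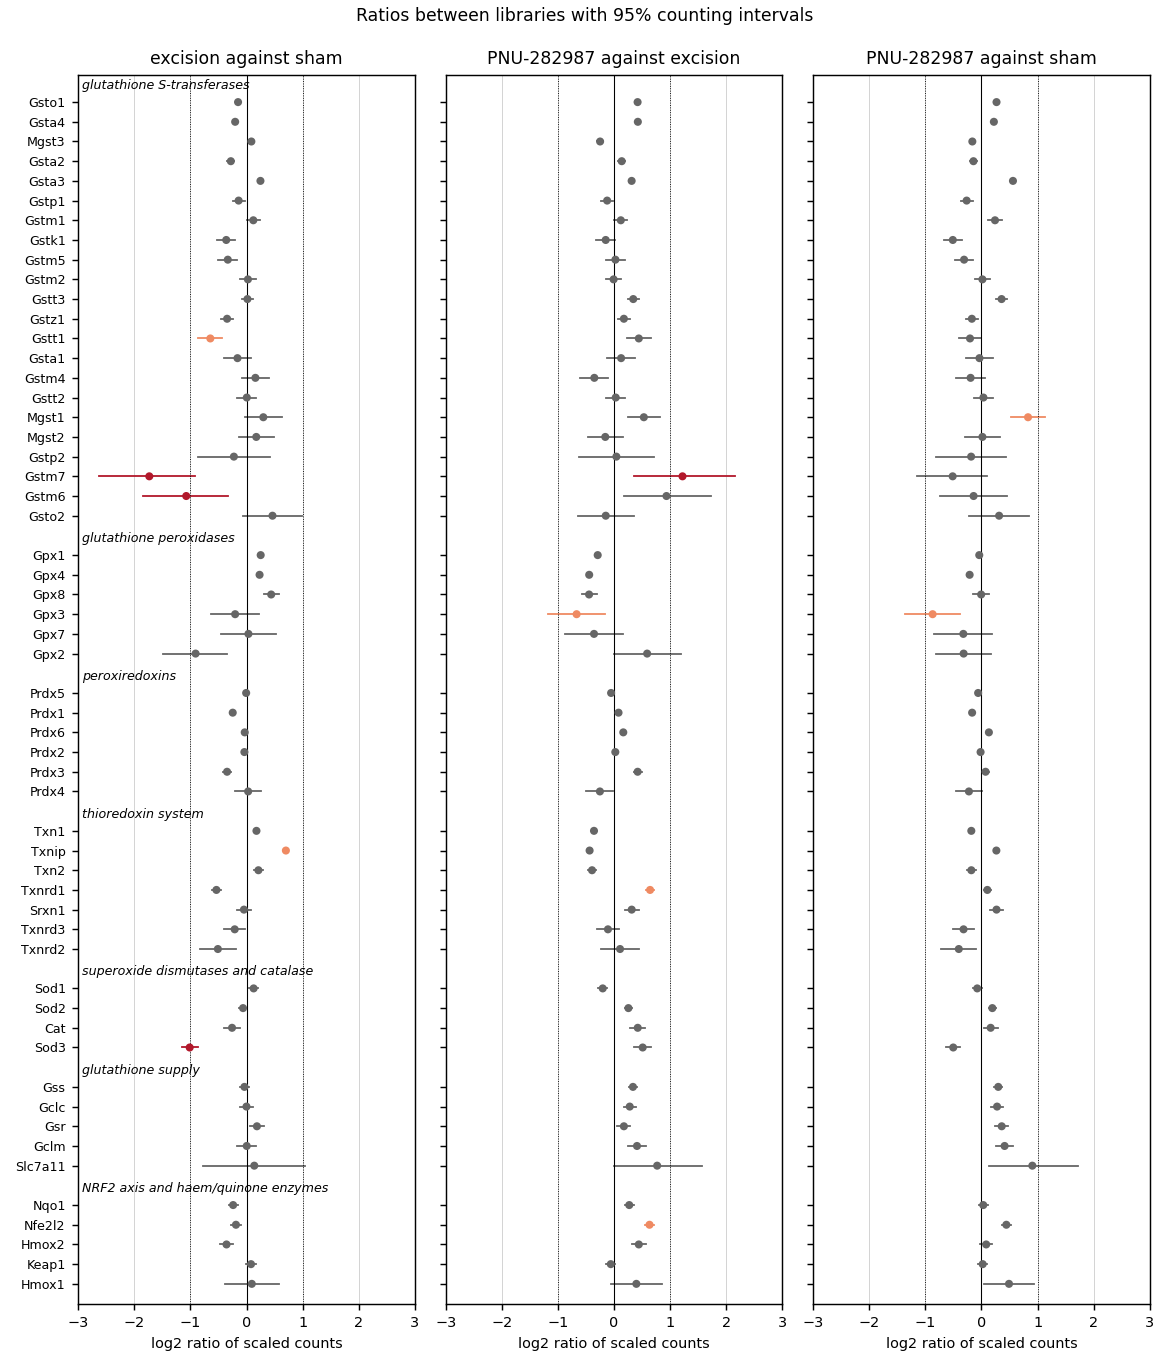
Log2 ratio of scaled counts for each measured antioxidant gene in the 3 comparisons, with 95% counting intervals as lines and dotted lines at 2-fold. Red points are genes called at 2-fold (Gstm6, Gstm7 and Sod3 in excision against sham, Gstm7 in PNU-282987 against excision), orange points are genes past 1.5-fold with at least 100 counts, and most others lie near 0.

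Of its own 3 comparisons, the NRF2 gene differed most in PNU-282987 against excision. Nfe2l2 (gene ID 18024), which encodes NRF2, stood at 65.1, 57.1 and 88.5 CPM. The PNU-282987 library was the high one, 1.55-fold above excision (1.47 to 1.64) and 1.36-fold above sham (1.29 to 1.43). Keap1 (gene ID 50868), the gene of its inhibitor, was nearly level, at 60.1, 63.5 and 61.1 CPM, and its largest ratio was 1.06-fold (0.997 to 1.12).

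The same group holds enzymes with haem or quinone substrates, some of them classical NRF2 targets. Nqo1 (gene ID 18104), a quinone reductase, stood at 68.8, 58.2 and 70.3 CPM. Excision was 1.18-fold below sham (1.12 to 1.25), and PNU-282987 was 1.21-fold above excision (1.14 to 1.28). The inducible haem oxygenase gene Hmox1 was scarce, with 73, 74 and 102 counts, and PNU-282987 was 1.41-fold above sham (1.03 to 1.92). Its constitutive relative Hmox2 was lowest in excision, at 33.3, 25.995 and 35.3 CPM, 1.28-fold below sham (1.18 to 1.39). In PNU-282987 against excision 4 of these 5 genes of the NRF2 axis lay above 0, with Keap1 the exception, and none was called.

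NRF2 binds the antioxidant response element, whose core is TGACNNNGC. RefSeq promoters of build GRCm38.p6, from 250 bases before to 50 bases after an annotated start, were found for 49 of the 56 genes and searched for that core on both strands. The other 7, Sod3, Gstt2, Gclc, Hmox1, Gsta4, Prdx6 and Gsr, had no promoter entry and were not searched. Of the 49 genes searched, 10 held the core (20.4%), against 14.0% of 27025 genes in the same table. By promoter the shares were 15.4% of 65 and 12.4% of 32851. In Srxn1 the match began 28 bases after the start, and in the other 9 genes it lay before it. A match is a description of these letters and not a binding site.

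The stretches around the match are shown for 5 of these genes that differ in role, a glutathione supply gene, a thioredoxin reductase, a peroxiredoxin, a glutathione S-transferase and NRF2 itself, with the 9-base match in capitals and each strand read 5′ to 3′ along the gene.
Gclm, chr3:122245398-122245456, plus strand: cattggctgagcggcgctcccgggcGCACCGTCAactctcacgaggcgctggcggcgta
Txnrd1, chr10:82859089-82859147, plus strand: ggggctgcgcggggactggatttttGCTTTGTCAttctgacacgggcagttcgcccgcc
Prdx1, chr4:116685441-116685499, plus strand: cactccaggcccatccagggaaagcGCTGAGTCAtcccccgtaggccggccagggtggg
Gsta3, chr1:21240439-21240497, plus strand: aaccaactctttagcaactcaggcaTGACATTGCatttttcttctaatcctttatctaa
Nfe2l2, chr2:75704870-75704913, minus strand: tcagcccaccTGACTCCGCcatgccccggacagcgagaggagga

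In Gclm, Txnrd1 and Prdx1 the core lies on the opposite strand, where it reads TGACGGTGC, TGACAAAGC and TGACTCAGC. Gstm7 holds the same 9 letters as Txnrd1, TGACAAAGC, on its own strand, beginning 129 bases before the start. Between excision and sham these genes did not share 1 direction. Gstm7 was called lower, Txnrd1, Prdx1 and Nfe2l2 were lower by less than 2-fold, Gclm was level and Gsta3 was higher by less than 2-fold. In PNU-282987 against excision all of them were higher, and Gstm7 alone was called. Of the other genes with a match, Gstm5, Mgst1 and Srxn1 were higher there as well and Sod1 was lower. Of all antioxidant genes 35 of 55 lay above 0 in that comparison. Whether the match has a part in the levels was not tested.

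**Figure D5:**
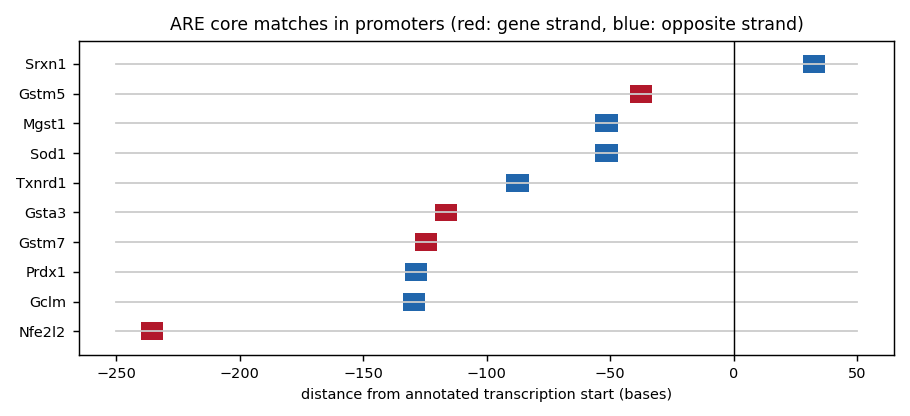
Position of the antioxidant response element core in the promoters of the 10 antioxidant genes that hold it, as distance in bases from the annotated start, with red bars for the gene's own strand and blue bars for the opposite strand. The matches spread from 240 bases before the start in Nfe2l2 to 28 bases after it in Srxn1.

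Genes that supply glutathione had a median log2 ratio of 0.003 between excision and sham, and Gsr was 1.14-fold higher in excision (1.04 to 1.24). All 5 lay above 0 in PNU-282987 against sham, with a median log2 ratio of 0.36, and all 5 lay above 0 against excision, with a median of 0.34. None reached 2-fold. The catalytic subunit of glutamate-cysteine ligase, the rate-limiting enzyme of glutathione synthesis, is encoded by Gclc, which stood at 36.8, 36.8 and 44.7 CPM. PNU-282987 was 1.21-fold above sham for Gclc (1.13 to 1.30). The modifier subunit gene Gclm followed the same order at 15.1, 15.1 and 20.03 CPM, 1.33-fold above sham (1.19 to 1.48).

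Glutathione synthetase, which completes the peptide, is encoded by Gss, at 68.3, 66.5 and 84.0 CPM. PNU-282987 exceeded sham by 1.23-fold (1.17 to 1.30) for Gss. Gsr, the reductase that regenerates glutathione, stood at 26.5, 30.1 and 34.0 CPM, lowest in sham, and PNU-282987 was 1.28-fold above sham (1.18 to 1.39). Slc7a11 (gene ID 26570), the cystine transporter gene, had 22, 23 and 41 counts. It was 1.87-fold higher in PNU-282987 than in sham (1.09 to 3.30), on counts below the minimum of 100 used for the lower threshold. The summed level of the 5 genes was 147, 149 and 184 CPM.

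The glutathione S-transferases, of which 22 were measured, were dominated by Gsto1 and Gsta4. Gsto1 (gene ID 14873), an omega class enzyme with thiol transferase activity, stood at 27526, 24774 and 33146 CPM. Excision was 1.11-fold below sham (1.108 to 1.114), and PNU-282987 was 1.34-fold above excision (1.33 to 1.34). Gsta4 (gene ID 14860), which conjugates the lipid peroxidation product hydroxynonenal, took the same order at 6035, 5241 and 7033 CPM. PNU-282987 was 1.34-fold above excision (1.334 to 1.350) for Gsta4. Krt12, the epithelial keratin gene, was also lowest in excision and highest in PNU-282987. The summed corneal epithelium list took the same order, at 88769, 84489 and 100619 CPM. That sum includes Krt12 as a large part, so it is not a separate observation. Single genes of that list went otherwise: 11 of 15 lay above 0 in excision against sham, with a median log2 ratio of 0.14. Whether the share of epithelial RNA took part in these differences was not tested.

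Because of these 2 genes, the sum over all antioxidant genes was 1.09-fold lower in excision than in sham (39261 and 35917 CPM) and 1.28-fold higher in PNU-282987 than in excision (45948 CPM). Without them the sums were 5700, 5903 and 5768 CPM, and both directions turned, to 1.04-fold higher and 1.02-fold lower.

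The alpha class gene Gsta3 (gene ID 14859) was lowest in sham and highest in PNU-282987, at 215, 255 and 316.5 CPM, a ratio of 1.48-fold to sham (1.43 to 1.52). Gsta2 went otherwise, at 125, 103 and 113 CPM. Gsta1 was scarcer, at 7.66, 6.84 and 7.47 CPM. Copies of these genes resemble one another: of the 50-base stretches of the longest GENCODE M21 coding transcript, 89.7% of those of Gsta1 and 64.2% of those of Gsta2 occurred in transcripts of another gene. How the counts were split between such copies is uncertain. The same holds for Gstp1 (62.3%) and Gstp2 (72.6%), pi class genes at 38.7, 35.0 and 32.2 CPM and at 1.23, 1.05 and 1.08 CPM. Smaller shares, 23.1% for Gstm1, 18.9% for Gpx2 and 10.9% for Prdx1, leave some of those counts uncertain too.

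Of the mu class, Gstm7 and Gstm6 were the transferases called between excision and sham, on few counts. Gstm7 (gene ID 68312) had 56, 16 and 39 counts. Excision was the low library, 3.33-fold below sham (1.88 to 6.21), and PNU-282987 was 2.33-fold above excision (1.27 to 4.47). Gstm6 (gene ID 14867) had 51, 23 and 46 counts and was 2.11-fold lower in excision than in sham (1.26 to 3.61). For Gstm6 11.5% of 50-base stretches were shared with other genes, so some counts may belong to a relative. Of the more abundant mu genes, Gstm5 was also highest in sham and lowest in excision, at 17.5, 13.8 and 14.1 CPM. Gstm1 stood at 28.6, 31.1 and 33.8 CPM and Gstm2 at 22.1, 22.5 and 22.4.

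Among theta class genes Gstt1 (gene ID 14871) was lowest in excision, at 12.5, 8.001 and 10.9 CPM, 1.57-fold below sham (1.35 to 1.81). Gstt2 was level at 15.3, 15.4 and 15.7 CPM. Gstt3 was higher in PNU-282987, at 39.8, 40.2 and 51.0 CPM, 1.28-fold above sham (1.20 to 1.37). Of the 50-base stretches of Gstt3 26.0% occurred in another gene, so some counts may belong there. Kappa class Gstk1, a mitochondrial and peroxisomal transferase, was highest in sham, at 20.3, 15.8 and 14.3 CPM, and PNU-282987 was 1.43-fold below sham (1.28 to 1.59).

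The microsomal transferases, which sit in membranes, differed in size of change. Mgst1 (gene ID 56615) stood at 3.64, 4.47 and 6.46 CPM. PNU-282987 was the high library for Mgst1, 1.78-fold above sham (1.44 to 2.20). In the same order of libraries the conjunctival and goblet cell list stood at 2294, 3837 and 5870 CPM, and its part in the Mgst1 values was not tested. Mgst3, the abundant one, stood at 177, 188 and 158 CPM, and Mgst2 at 4.30, 4.85 and 4.35.

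Glutathione peroxidases took another order than the supply genes: of 6 measured, 5 were lower in PNU-282987 than in excision, with a median log2 ratio of -0.40, and none was called. Gpx1, the cytosolic peroxidase, stood at 406, 483 and 395 CPM, and PNU-282987 was 1.22-fold below excision (1.20 to 1.25). Gpx4, which reduces lipid peroxides in membranes, stood at 282, 331 and 243 CPM, 1.36-fold lower in PNU-282987 than in excision (1.32 to 1.40). Of the 50-base stretches of Gpx4 61.7% occurred in other genes, among them the processed pseudogene Gpx4-ps2. Gpx8, an enzyme of the endoplasmic reticulum, was highest in excision at 20.7, 28.04 and 20.6 CPM. For these 3 genes the excision library was the high one.

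The secreted peroxidase gene Gpx3 (gene ID 14778) was lowest in PNU-282987, with 103, 85 and 56 counts, 1.83-fold below sham (1.31 to 2.58) and 1.59-fold below excision (1.12 to 2.27). Gpx2, known from gut epithelium, had 79, 40 and 63 counts and was 1.88-fold lower in excision than in sham (1.27 to 2.82), on too few counts for the lower threshold. Gpx7 had 73, 71 and 58 counts.

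The peroxiredoxins, abundant thiol peroxidases, were even across libraries, with all 6 between log2 ratios of -0.5 and 0.5 in each comparison. Prdx5 stood at 1034, 1029 and 992 CPM, Prdx6 at 693, 677 and 759, and Prdx2 at 271, 263 and 268. Prdx1, a classical NRF2 target, was highest in sham at 543, 458 and 484 CPM, with excision 1.19-fold lower (1.16 to 1.21). Prdx3, the mitochondrial form, was lowest in excision at 91.7, 72.0 and 96.4 CPM, 1.27-fold below sham (1.21 to 1.34). Red cells are rich in Prdx2. The red blood cell list stood at 72.0, 17.3 and 9.71 CPM, and its part in the Prdx2 values was not tested.

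In the thioredoxin system the inhibitor and the reductase went opposite ways between excision and sham. Txnip (gene ID 56338), whose protein binds and inhibits thioredoxin and responds to glucose, stood at 324, 526 and 389 CPM. Excision was the high library, 1.63-fold above sham (1.59 to 1.66), and PNU-282987 was 1.35-fold below excision (1.32 to 1.38). Txnrd1 (gene ID 50493), the cytosolic selenoprotein that recharges thioredoxin, stood at 92.6, 63.8 and 99.6 CPM. Excision was the low library there, 1.45-fold below sham (1.38 to 1.53), and PNU-282987 was 1.56-fold above excision (1.48 to 1.64).

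The thioredoxin genes themselves were highest in excision and lowest in PNU-282987. Cytosolic Txn1 stood at 417, 472 and 368 CPM, and PNU-282987 was 1.28-fold below excision (1.25 to 1.31). Mitochondrial Txn2 stood at 74.4, 86.1 and 65.6 CPM, 1.31-fold lower in PNU-282987 than in excision (1.25 to 1.38). Srxn1, which repairs overoxidised peroxiredoxins, was 1.24-fold higher in PNU-282987 than in excision (1.14 to 1.35), at 27.2, 26.4 and 32.8 CPM. The other reductase genes were highest in sham: mitochondrial Txnrd2 stood at 5.15, 3.61 and 3.89 CPM, and Txnrd3 at 13.7, 11.9 and 10.996.

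Of the genes that remove superoxide and hydrogen peroxide, Sod3 was the 1 called. Sod3 (gene ID 20657), the extracellular superoxide dismutase of connective tissue, stood at 31.8, 15.8 and 22.5 CPM. Excision was 2.02-fold below sham (1.83 to 2.23), PNU-282987 was 1.42-fold below sham (1.30 to 1.55), and PNU-282987 was 1.42-fold above excision (1.28 to 1.58). The stromal and endothelial marker lists were lower in excision than in sham as well, at 1248 against 1870 CPM and 624 against 1519 CPM, and their part in the Sod3 values was not tested.

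The intracellular enzymes differed less. Cytosolic Sod1 stood at 70.3, 76.7 and 66.7 CPM, with 23.1% of its 50-base stretches found in another gene, and mitochondrial Sod2 at 104, 99.3 and 119. Catalase, the peroxisomal enzyme encoded by Cat, stood at 25.9, 21.6 and 29.0 CPM, 1.34-fold higher in PNU-282987 than in excision (1.22 to 1.47).

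Other genes of these pathways were described from 6 further lists. Of 30 other NRF2 targets, all were measured and none was called in any comparison. Over all measured genes, 2.58% to 4.01% were called higher and 4.96% to 5.62% lower, depending on the comparison. Among genes with at least 100 counts calls were rarer, 127 to 237 higher and 199 to 313 lower of 11431. The median log2 ratio of the 30 targets was -0.07 between excision and sham, and 0.21 for PNU-282987 set against either of the others. Of 28 other genes of glutathione metabolism 27 were measured, with 0 called between excision and sham and 0 between PNU-282987 and sham. In PNU-282987 against excision 2 were lower, where 5.62% of all genes were, so this count lay near the background. Slc1a4, a neutral amino acid transporter gene, had 203, 334 and 136 counts (2.57-fold lower, 2.10 to 3.16), and Ggt7 had 148, 192 and 98 (2.05-fold lower, 1.60 to 2.64). The other thioredoxin fold and methionine sulfoxide reductase genes (28 measured) had no called member in any comparison, against the same backgrounds. The partners and regulators of NRF2 (19 measured) had none either. Of 19 measured genes for copper, iron and other peroxide handling, 1 was called in each comparison, the iron exporter gene Slc40a1. It had only 60, 12 and 27 counts, lower than sham in both other libraries and higher in PNU-282987 than in excision. Over all measured genes 5.48% were lower in excision than in sham and 4.96% lower in PNU-282987 than in sham. In PNU-282987 against excision 3.90% were higher, so 1 of 19 lay near the background each time. Slc40a1 is named after its values were seen.

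The last list held enzymes that produce oxidants. Set against sham, the excision library had 3 of 17 measured called higher and 3 called lower, against 4.01% and 5.48% of all genes. In PNU-282987 against sham 2 were higher and 2 lower, against 2.58% and 4.96%. Mpo, the peroxidase of neutrophil granules, had 515, 112 and 131 counts and was 4.37-fold lower in excision than in sham (3.56 to 5.41). Of 7 measured neutrophil genes 6 were called lower in excision than in sham and 5 in PNU-282987 than in sham, with a median log2 ratio of -2.43 and -1.48. Their defining granule gene Elane had 602, 132 and 156 counts, the same order as Mpo. The summed level of the neutrophil list, 63.3, 32.5 and 59.8 CPM, was carried in PNU-282987 by Ltf (38.3 CPM) and S100a9 (15.9 CPM). The part of neutrophils in the Mpo values was not tested. Duox1, an oxidase that releases hydrogen peroxide from epithelia, had 101, 203 and 216 counts, 2.11-fold higher in excision (1.66 to 2.71) and 2.15-fold higher in PNU-282987 (1.69 to 2.75) than in sham. Its relative's maturation factor gene Duoxa2 had 256, 104 and 208 counts, 2.34-fold lower in excision than in sham (1.86 to 2.97). In PNU-282987 against excision 2 were higher and 1 lower, against 3.90% and 5.62%. Among these, Sqor, a mitochondrial sulfide-oxidising enzyme gene, had 108, 58 and 122 counts (2.01-fold higher, 1.46 to 2.80).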

How the data were processed

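RNA of mouse cornea was sequenced in 3 libraries, 1 per group. The authors deposited whole-number counts of reads per gene, used here as deposited. HTSeq and R 3.2.0 are listed in the submitters' processing notes. Not given in the sources used here: aligner, genome build, annotation, strand setting and treatment of shared reads. Counts of near-identical, overlapping or antisense genes are therefore uncertain. Columns were matched to samples by title and groups taken from the treatment label.

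Counts were scaled with TMM (edgeR 4.0.16, R 4.3.3), with factors of 1.04, 0.985 and 0.980 for sham, excision and PNU-282987. Ratios and exact conditional binomial (Clopper-Pearson) 95% intervals were computed in Python 3.11.15 (NumPy 2.4.6, pandas 2.3.3, SciPy 1.17.1, matplotlib 3.10.9). A count of 0 allows up to 3 counts, or 0.0768, 0.0808 and 0.0773 CPM. With 1 library per group no test was made. Excision and sham counts of 13581 genes were also simulated, with Poisson counting error alone around the sham counts. On these the 2-fold rule called 100% of 4-fold, 98% of 3-fold, 44% of 2-fold and 0.157% of unchanged genes, 50 genes at each changed size. The simulation held no spread between animals, dissections or libraries, so these shares do not give the error of the rule on the real libraries. Exon lengths came from GENCODE M21 and promoters from RefSeq (GRCm38.p6), matched by symbol, and both may differ from the authors' annotation.

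The genes and lists were chosen with earlier results of these data known. Genes named are those called at 2-fold, those at 1.5-fold with at least 100 counts, the 3 most abundant per length of each role, 15 fixed regulators and enzymes and, per further list and comparison, up to 4 called genes with at least 100 counts. Others were named after their values were seen. The measured genes Gsto2, Gstm4, Gstz1 and Prdx4 are given only in the figures and in the sums and medians.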

Additional observations from a re-analysis of the deposited data

How the results depend on the processing

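No paired analysis was possible because each group had 1 library, and no library could be left out. Scaling by total counts, by median of ratios or by TMM without tissue and interferon lists left the number of called antioxidant genes as it was in each comparison. Total counts shifted ratios of the named genes by at most 0.0796 on the log2 scale, which turned values near 0, such as Nqo1 in PNU-282987 against sham (0.03 to -0.05) and the median of the glutathione supply genes in excision against sham (0.003 to -0.07). With at least 100 counts required, 1 of 48 genes was lower in excision than in sham, where 313 of 11431 genes were. At that minimum 0 were higher in PNU-282987 than in excision, where 224 of 11431 were. The median for PNU-282987 against sham was then 0.017. With no minimum it was 0.0010. At 1.5-fold, excision set against sham had 1 gene of 55 higher and 5 lower, where 1166 and 1281 of 14180 genes were. PNU-282987 had 4 higher and 1 lower against excision, where 1081 and 1582 were. Against sham it had 2 higher and 1 lower, where 712 and 1376 were. At 3-fold, 1 gene was lower in excision than in sham, where 422 of 14180 were. At that threshold 0 were higher in PNU-282987 than in excision, where 283 were. These shifts follow from the thresholds themselves. Without Gsto1 and Gsta4, an alternative added after seeing the data, the log2 ratio of the summed genes was 0.050 between excision and sham, -0.033 between PNU-282987 and excision and 0.017 between PNU-282987 and sham. Depth limits statements on Slc7a11, Hmox1, Gpx2, Gpx3, Gstm6, Gstm7 and Gstp3, whose intervals are wide.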
